A study of Mus musculus with 40 samples.

Results

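The serotonin receptor genes of the mouse hippocampus, chosen by name as Htr1a, Htr1b, Htr1d, Htr2a, Htr2c, Htr3a, Htr4, Htr5a, Htr6 and Htr7, were followed through neuronal deletion of the histone variant H2A.Z and its replacement by forms of H2A.Z.1. These 10 genes were among 40853 in the deposited count table, and all 10 were among the 28449 genes whose counts summed to 20 or more across the mice and which were therefore tested. Another 4 serotonin receptor genes of the table, Htr1f, Htr2b, Htr3b and Htr5b, are described beside them. Hippocampal RNA was sequenced from 40 mice in 10 groups, each of 1 sex (18 females in all and 22 males) and 1 virus mixture, and every mouse gave 1 library. The methods describe mice in which the genes of both H2A.Z isoforms were floxed, and a virus mixture injected into the hippocampus. H2A.Z.1 KA mice received Cre recombinase under the synapsin promoter, which is active in neurons, together with Myc-tagged H2A.Z.1 under the CMV promoter, in which N-terminal lysines had been changed to alanine, which cannot be acetylated. H2A.Z.1 KQ mice received the same Cre with a form carrying glutamine at these lysines, which mimics acetylation, and H2A.Z.1 WT mice the same Cre with the unmutated protein. H2A.Z KO mice received the Cre and the Myc tag alone, and Myc mice the tag alone without Cre. The labels give the genotype of the Myc mice as WT, and no age was given in the sources used here. There were 4 KA, 3 KQ, 4 WT, 4 KO and 3 Myc females, and 4 KA, 5 KQ, 5 WT, 4 KO and 4 Myc males. The labels do not name litters, so that p-values measure the spread between these mice.

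Libraries held 24342921 to 45982772 counts, with a median of 36417112. For neither deleted gene did all KO mice lie below all Myc mice of their sex in these counts of whole tissue. The authors report that Cre lowered the mRNA of both genes, and strongly lowered H2A.Z in cultured hippocampal neurons. They hold that bulk tissue likely has little sensitivity for a deletion confined to neurons. H2az1, the gene of H2A.Z.1, was at 28.1 to 36.3 CPM (the count relative to library size, with TMM factors) in KO females, against 28.1 to 34.5 CPM in Myc females, and at 17.7 to 37.6 CPM in KO males, against 27.0 to 37.2 CPM in Myc males. The 17.7 CPM was that of KO male 42 alone, and the other KO males were at 33.9 to 37.6 CPM. H2az2, the gene of H2A.Z.2, was at 26.2 to 30.0 CPM in KO females, against 19.4 to 26.0 CPM in Myc females, and at 20.8 to 29.3 CPM in KO males, against 20.6 to 26.5 CPM in Myc males. For H2az2 every KO female thus lay above every Myc female, opposite to deletion (log2 fold change 0.28, adjusted p = 0.0609), and the other ranges overlapped. Female Myc mouse 32 stood apart from the other controls of its sex, its counts giving chi-square values per degree of freedom of 286 with mouse 11 and 205 with mouse 31, against 25.5 between mice 11 and 31. Ttr, the leading gene of the choroid plexus, exceeded 1000 CPM in 4 mice, KQ female 17, WT female 20 and KO females 14 and 33. In H2A.Z KO over Myc, markers of neurons were lower in 9 of 10 in females and 5 of 10 in males, and those of interneurons in 8 of 12 and 7 of 12. Markers of microglia were higher in 7 of 7 in both sexes, of T cells in 6 of 6, of astrocytes in 5 of 5, and of choroid plexus in 15 of 16 in females and 0 of 16 in males. At the same adjusted p under 0.05, 16.5% of all genes tested were lower in females and 14.4% in males, and 18.1% and 17.2% were higher.

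Serotonin reaches the hippocampus in axons from the raphe nuclei and acts there on receptors of several families. Receptors of Htr1a, Htr1b, Htr1d and Htr5a couple to the inhibitory G proteins Gi and Go, those of Htr2a and Htr2c to Gq and phospholipase C, and those of Htr4, Htr6 and Htr7 to Gs and adenylyl cyclase. The product of Htr3a is different in kind, a subunit of a cation channel opened by serotonin, and in the cortex and hippocampus it is known from interneurons. H2A.Z is a variant of the core histone H2A that is enriched in nucleosomes around the start sites of genes.

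Per kb of exon, Htr1a was the receptor gene with the highest level, with a median over the 40 mice of 7.20 CPM per kb and a range of 4.04 to 11.0. In the hippocampus Htr1a is known from pyramidal and granule cells. Htr3a followed with a median of 2.60 CPM per kb and Htr4 with 2.57, whose ranges overlapped almost wholly, and then Htr2c with 1.99, Htr1b with 1.80, Htr6 with 1.75, Htr7 with 1.24 and Htr5a with 1.04 CPM per kb. Each of these overlapped the next in range. Htr2a was lower at 0.476 CPM per kb, and Htr1d, close in sequence to Htr1b, lowest of the 10 at 0.0349 CPM per kb, with 1 to 19 counts per mouse. Exons of Htr1b overlapped those of D430036J16Rik on the opposite strand over 897 bases and exons of Htr2c those of Gm61665 over 215 bases. The strand setting of the counting is not given in the sources used here, so reads of these overlaps cannot be assigned to a gene.

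**Figure D1:**
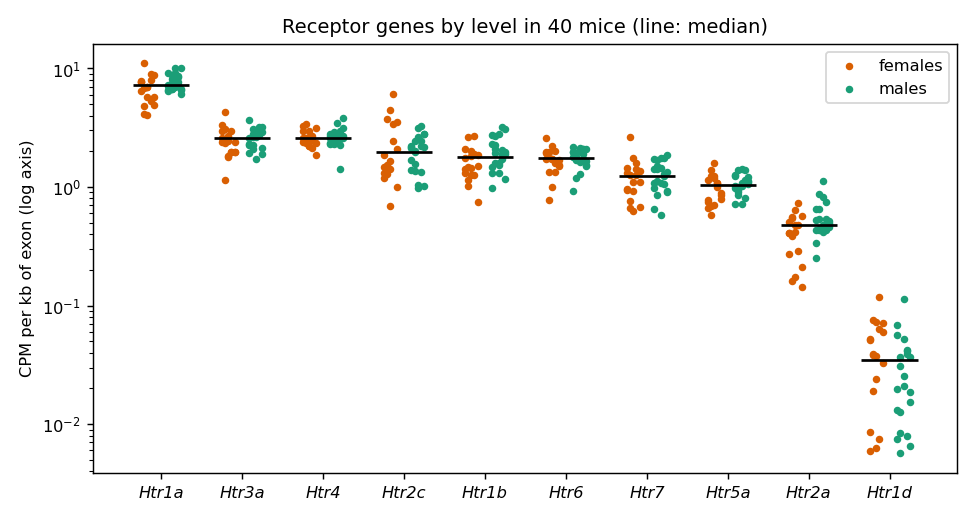
Level of the 10 receptor genes in each of the 40 mice (points, females left of males), as CPM per kb of exon on a log axis, with the median as a line. Htr1a stood highest with a median of 7.20 and Htr1d lowest with 0.0349 CPM per kb.

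The promoters of the 4 genes to which most of the results below refer are shown, and they differ in their CG content. A link between CG content and the changes of these genes was not tested. Each run is the 250 bases before the start of the canonical transcript in GRCm39, read 5′ to 3′ in the direction of the gene, with every CG in capitals:
Htr3a (chr9:48822687-48822936, minus strand): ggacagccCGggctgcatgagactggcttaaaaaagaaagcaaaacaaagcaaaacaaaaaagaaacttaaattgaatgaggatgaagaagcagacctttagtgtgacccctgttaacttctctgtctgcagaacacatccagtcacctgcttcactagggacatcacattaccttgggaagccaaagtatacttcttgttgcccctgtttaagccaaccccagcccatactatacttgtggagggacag
Htr6 (chr4:138802887-138803136, minus strand): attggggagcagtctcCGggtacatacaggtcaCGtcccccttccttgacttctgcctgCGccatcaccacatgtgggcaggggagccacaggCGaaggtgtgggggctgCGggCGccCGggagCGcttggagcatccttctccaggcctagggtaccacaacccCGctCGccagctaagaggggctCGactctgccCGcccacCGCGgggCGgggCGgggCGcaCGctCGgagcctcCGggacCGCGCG
Htr1b (chr9:81515903-81516152, minus strand): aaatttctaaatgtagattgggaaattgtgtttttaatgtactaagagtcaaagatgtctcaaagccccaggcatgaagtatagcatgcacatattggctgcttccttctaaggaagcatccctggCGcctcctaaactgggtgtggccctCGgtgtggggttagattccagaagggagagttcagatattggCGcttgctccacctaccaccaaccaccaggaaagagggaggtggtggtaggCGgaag
Htr7 (chr19:36035178-36035427, minus strand): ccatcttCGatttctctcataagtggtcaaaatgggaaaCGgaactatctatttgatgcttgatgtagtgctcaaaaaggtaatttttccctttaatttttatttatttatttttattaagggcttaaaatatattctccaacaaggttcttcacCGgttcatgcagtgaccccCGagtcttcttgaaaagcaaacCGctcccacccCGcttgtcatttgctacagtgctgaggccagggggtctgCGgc

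The Htr3a promoter held 1 CG, and 16.5% of the 21770 promoters of the same length held 1 or 0, while the Htr6 promoter held 23, a number higher than in 89.2% of them. Those of Htr1b and Htr7 held 4 and 7 CG, between the quartiles of 3 and 16, with a median of 8. The GC box GGGCGG, searched on both strands, occurred 3 times before Htr6 and 1 time each before Htr1a, Htr1d and Htr5a, and 36.3% of all promoters held it at least once. The letters CCAAT, also searched on both strands, occurred 3 times before Htr1b, there always as the reverse complement ATTGG. They occurred 2 times before Htr4 and 1 time each before Htr1d, Htr2c and Htr6, and 36.5% of promoters held them. Htr3a and Htr6 thus stood near opposite ends of the range of CG content.

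The first comparison asked which receptor genes respond to deletion. In H2A.Z KO over Myc, 4 of 10 receptor genes were lower in females, Htr3a, Htr5a, Htr6 and Htr7, and 2 of 10 in males, Htr3a and Htr6, by edgeR's quasi-likelihood test at an adjusted p under 0.05. None was higher, with 0 of 10 in each sex where 18.1% and 17.2% of all genes tested were. Of all genes 16.5% were lower in females and 14.4% in males, so the count in males stood near that of all genes, and 11.3% were lower in both sexes. Of the 28449 genes tested 15937 averaged at least 1 CPM, as all of the 10 but Htr1d did. These shares are thus not matched for level. The median log2 fold change of the 10 was −0.51 in females and −0.36 in males, against 0.0030 and 0.027 over all genes. The same 4 genes in females and 2 in males were also those for which every KO mouse lay below every Myc mouse, against 16.4% and 13.2% of all genes.

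**Figure D2:**
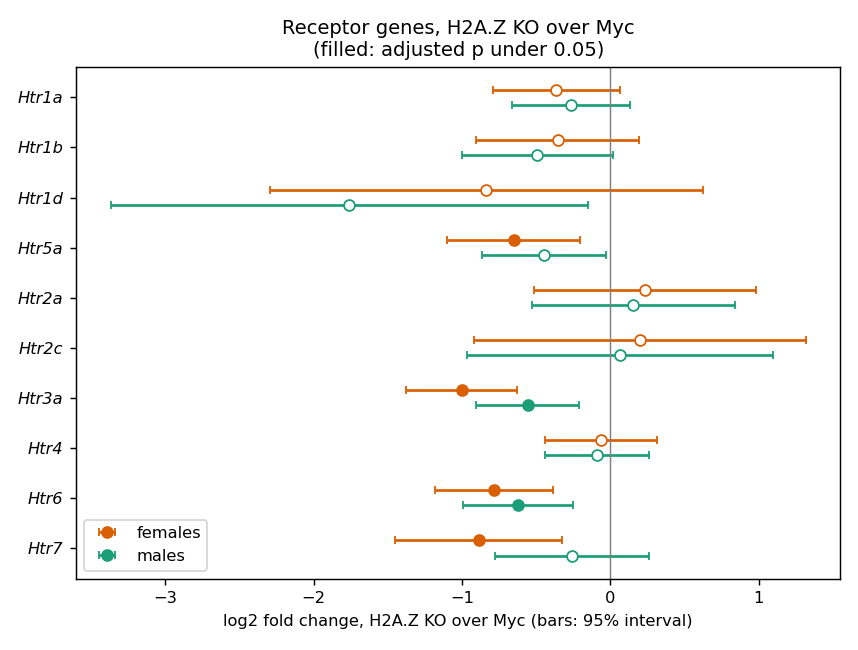
Change on the log2 scale, H2A.Z KO over Myc, of each receptor gene (points, females above males) with its 95% interval, filled where the adjusted p is under 0.05. Htr3a and Htr6 were filled in both sexes, and Htr4 lay near 0 with narrow intervals.

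Of the 10 genes Htr3a had the smallest p-value in females. It was at 2.75, 4.26, 4.69 and 4.74 CPM in H2A.Z KO females, against 8.00, 10.3 and 6.43 CPM in Myc females. In males it was at 4.57, 4.63, 5.03 and 4.15 CPM in KO mice, against 6.61, 7.62, 5.45 and 7.43 CPM in Myc mice. All KO mice lay below all Myc mice of their sex, with KO female 13 lowest of the 40 mice and Myc female 31 highest. The log2 fold change was −1.0 ± 0.18 (SE) in females (edgeR, adjusted p = 4.79e-05) and −0.56 ± 0.17 in males (adjusted p = 0.0109). It passed without any 1 of the 7 females or 8 males, and was −1.15 without Myc mouse 32.

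In the replacement groups Htr3a stood higher than in KO mice. It was at 6.17, 5.64, 5.86 and 7.04 CPM in KA females, at 4.75, 7.15 and 7.33 CPM in KQ females and at 4.34, 4.73, 5.75 and 5.73 CPM in WT females. In males it was at 6.24, 6.36, 6.27 and 7.25 CPM with KA, at 6.94, 5.51, 6.73, 6.48 and 7.67 CPM with KQ and at 5.06, 8.70, 5.35, 6.39 and 7.16 CPM with WT. KA mice of both sexes, KQ mice of both sexes and WT males lay above all KO mice of their sex, while 2 of the 4 WT females lay within the range of the KO females. Against KO the log2 fold change was 0.59 ± 0.17 with KA (adjusted p = 0.0166) and 0.64 ± 0.18 with KQ (adjusted p = 0.0167) in females. In males it was 0.50 ± 0.17 with KA (adjusted p = 0.0388), 0.53 ± 0.16 with KQ (adjusted p = 0.0161) and 0.50 ± 0.16 with WT (adjusted p = 0.0252). In WT females it was 0.32 ± 0.17 and did not pass (adjusted p = 0.23), and against Myc these mice stayed lower, by −0.68 ± 0.18 (adjusted p = 0.0164). That last call was lost without WT mouse 19 (adjusted p = 0.0612), WT mouse 20 (0.0564) or Myc mouse 31 (0.153), and with the choroid plexus score (0.0674), neuron score (0.237) or interneuron score (0.505).

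Htr6, whose product stimulates adenylyl cyclase and is found on neuronal primary cilia, followed a similar course at similar CPM. It was at 2.37, 3.06, 4.87 and 4.69 CPM in KO females, against 7.95, 6.09 and 5.24 CPM in Myc females, and at 4.62, 2.81, 3.65 and 3.98 CPM in KO males, against 5.23, 6.41, 6.07 and 5.45 CPM in Myc males. The groups did not overlap in either sex, although the highest KO females, 33 and 34, came close to the lowest Myc female. The log2 fold change was −0.79 ± 0.20 in females (adjusted p = 0.00175) and −0.62 ± 0.18 in males (adjusted p = 0.00802), and the call in males was lost without KO mouse 4 (−0.50, adjusted p = 0.0517). When only the KO and Myc females entered the model, the call in females was also lost (−0.77, adjusted p = 0.0609).

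With replacement Htr6 was higher than in KO in KA females, at 5.32, 4.08, 6.75 and 6.18 CPM, and in all 3 male replacement groups. These males were at 6.70, 5.22, 6.43 and 6.42 CPM with KA, at 4.69, 5.46, 5.93, 4.94 and 6.36 CPM with KQ and at 5.06, 6.01, 5.93, 6.49 and 5.82 CPM with WT, all above every KO male. Log2 fold changes over KO were 0.58 ± 0.18 in KA females (adjusted p = 0.0273), 0.72 ± 0.18 in KA males (adjusted p = 0.00503), 0.54 ± 0.18 in KQ males (adjusted p = 0.0221) and 0.64 ± 0.18 in WT males (adjusted p = 0.00729). KQ females, at 0.52 ± 0.20, and WT females, at 0.46 ± 0.18, did not pass (adjusted p = 0.0726 and 0.0901), and DESeq2 called KQ females (0.044). Against Myc, Htr6 passed in none of the 6 replacement groups, with log2 fold changes of −0.33 to 0.10.

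**Figure D3:**
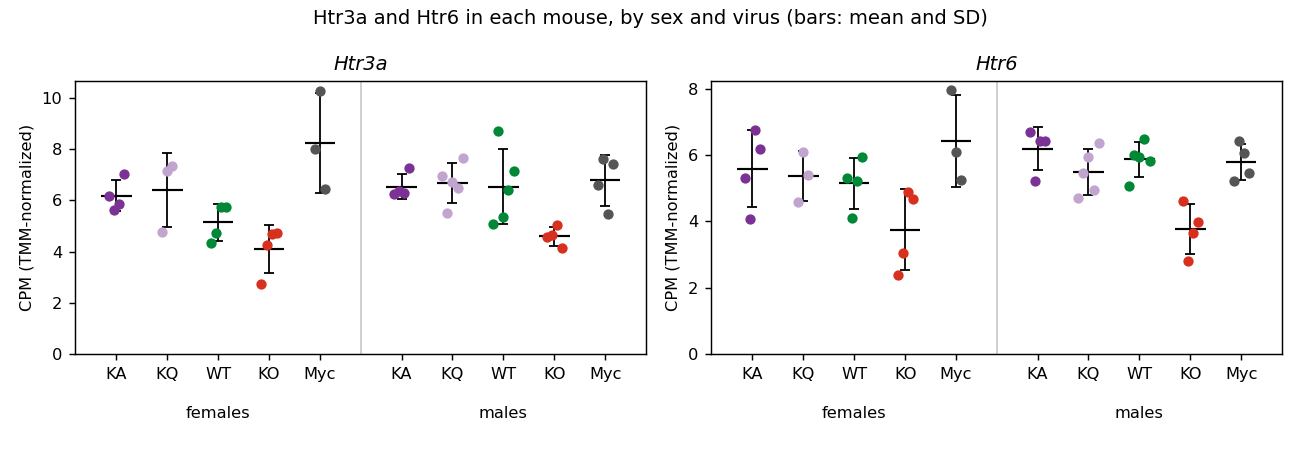
Htr3a and Htr6 in CPM in each mouse (points) by sex and virus, with the mean and SD of each group. KO mice of both sexes lay below the Myc mice of their sex for both genes, and male replacement groups lay above KO males.

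Htr3a thus stood higher than KO in 5 of 6 replacement groups and Htr6 in 4 of 6. Of the 3211 genes lower in KO in both sexes, 24.3% were higher in at least 5 groups and 32.7% in at least 4, so these courses were shared by many genes. The comparisons with KO use the same KO mice as those of KO with Myc. Several calls depended on single mice. Without KO female 13, the lowest for both genes, those of Htr3a in KA and KQ females (adjusted p = 0.114 and 0.0999) and of Htr6 in KA females (0.165) were lost. Those of Htr3a in KA males were lost without any 1 of 6 of the 8 mice (3, 4, 25, 26, 42 and 43, adjusted p up to 0.12) and in WT males without 5 of 9 (3, 4, 10, 42 and 46, adjusted p up to 0.106). Htr3a was lost without KA female 36 in KA females (0.0705) and without KQ females 37 or 38 in KQ females (0.117 and 0.114). Htr6 was lost without KO female 14 or KA females 35 or 36 in KA females (0.118, 0.121 and 0.0891), without KO male 4 in WT males (0.0559), and without KO males 4 or 21 or KQ male 45 in KQ males (0.131, 0.0526 and 0.0568). With the range of sample numbers as a covariate Htr3a in KA males over KO was at 0.47 and did not pass (adjusted p = 0.053). With only the groups compared, Htr3a was lost in KA and KQ females (0.071 and 0.156) and WT males (0.0618), and Htr6 in KA females (0.161) and KQ males (0.0612). With the choroid plexus score Htr6 was lost in KA females (0.0739). The call of Htr3a in KQ males and that of Htr6 in KA males passed without any 1 mouse.

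Levels of neuronal markers moved with these changes. The summed level of 10 neuron markers was 3687 to 6398 CPM in KO females, against 8525 to 9173 CPM in Myc females, and 4353 to 7354 CPM in KO males, against 8341 to 9003 CPM in Myc males. In the replacement groups it was 5562 to 7639 CPM in females and 6305 to 9416 CPM in males. The sum of 12 interneuron markers, which with Gad1 and Gad2 include the enzymes that make GABA, was 575 to 877 CPM in KO females, against 1142 to 1513 CPM in Myc females, and 648 to 849 CPM in KO males, against 1152 to 1346 CPM in Myc males. Of the 12 markers, 8 were lower in KO over Myc in females and 7 in males. Passing in neither sex were Vip (0.07 in females and 0.40 in males), Calb2 (−0.10 and 0.06), Npy (−0.34 and 0.12) and Ndnf (−0.17 and −0.28). In whole tissue, fewer cells of a type and less RNA per cell cannot be told apart. Neither the neuron nor the interneuron sum overlapped between KO and Myc mice of a sex. A covariate made from these markers and the group thus cannot be told apart fully, and calls lost with it settle no cause. With the neuron score of each mouse as a covariate, an alternative added after the data were seen, Htr3a in KO over Myc was at −0.56 in females and −0.23 in males, and Htr6 at −0.19 in both sexes, and none of them passed (adjusted p = 0.101, 0.464, 0.628 and 0.539). Of the other calls in KO females, Htr5a was at −0.11 and Htr7 at −0.07 with the neuron score (adjusted p = 0.854 and 0.929). With the interneuron score they were at −0.27 and 0.17 (adjusted p = 0.669 and 0.818). That score put Htr3a at −0.44 in females and −0.11 in males, and Htr6 at −0.29 and −0.22, and none passed either (adjusted p = 0.266, 0.804, 0.538 and 0.605). Most calls over KO were lost as well. With the neuron score Htr3a over KO was at 0.37 with KA and 0.40 with KQ in females (adjusted p = 0.231 and 0.211), and at 0.32 with KA, 0.25 with KQ and 0.29 with WT in males (adjusted p = 0.222, 0.444 and 0.275). Htr6 over KO was at 0.28 in KA females, 0.17 in KQ males and 0.36 in WT males (adjusted p = 0.376, 0.609 and 0.112), and passed in KA males alone. With the interneuron score Htr3a passed over KO in KQ females alone, and Htr6 in KA and WT males.

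Over the 40 mice the correlation with the neuron score was 0.78 for Htr3a and 0.80 for Htr6, and within groups 0.54 and 0.70. These points share the libraries and their scaling.

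Htr1b, whose product sits on axon terminals and limits transmitter release, and Htr7, which couples to Gs, were lower than Myc in groups with replacement, Htr1b in KA and WT males and Htr7 in KA mice of both sexes and KQ females. Htr7 was also lower in KO females, where Htr1b did not pass. In males Htr1b was at 4.67, 10.7, 6.19 and 8.14 CPM with KA, at 5.57, 10.9, 9.25, 7.26 and 9.07 CPM with KQ, at 8.92, 6.26, 7.52, 7.62 and 9.81 CPM with WT and at 9.33, 7.03, 9.98 and 13.3 CPM with KO, against 15.2, 14.6, 13.0 and 12.8 CPM in Myc mice. All mice with replacement lay below all Myc males, and KO mouse 42 overlapped them. Over Myc its log2 fold change was −0.90 ± 0.25 with KA (adjusted p = 0.0200) and −0.79 ± 0.24 with WT (adjusted p = 0.0405). KQ males, at −0.72 ± 0.24, and KO males, at −0.49 ± 0.25, did not pass (adjusted p = 0.0681 and 0.138), and DESeq2 called Htr1b in KQ males. In females it was 7.33 ± 1.77 CPM with KA, 5.74 ± 1.90 with KQ, 6.88 ± 1.14 with WT and 8.34 ± 3.40 with KO (SD, n = 4, 3, 4 and 4), against 10.7 ± 1.62 in Myc (n = 3), and passed in none, with log2 fold changes of −0.90 to −0.36 (adjusted p = 0.0627 to 0.327). In KQ females it passed by DESeq2 (adjusted p = 0.0224), with filterByExpr (0.0464) and with the range of sample numbers (0.00516), and in WT females with only the groups compared (0.036). The call in WT males was lost without any 1 of 8 of the 9 mice (1, 9, 10, 22, 23, 29, 30 and 41, adjusted p up to 0.119). That in KA males was lost without Myc mouse 1 (adjusted p = 0.0612), KA mouse 5 (0.12) or KA mouse 26 (0.0746). With the interneuron score neither passed (adjusted p = 0.427 with KA and 0.82 with WT), and WT was lost with the neuron score (0.0639).

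Htr7 was at 3.76, 3.02, 2.49 and 5.61 CPM in KA females, 2.72, 3.82 and 5.07 CPM in KQ females, 4.37, 6.29, 4.36 and 5.19 CPM in WT females and 2.67, 3.68, 5.00 and 5.45 CPM in KO females, against 5.77, 10.5 and 7.07 CPM in Myc females. KA, KQ and KO females all lay below the Myc females, and of the WT females mouse 20 overlapped them. Log2 fold changes were −1.05 ± 0.28 with KA (adjusted p = 0.0152), −1.01 ± 0.30 with KQ (adjusted p = 0.04) and −0.89 ± 0.28 with KO (adjusted p = 0.0111), and −0.62 ± 0.28 with WT, which did not pass (adjusted p = 0.15). All 3 calls were lost without Myc mouse 31, the highest, at −0.78, −0.73 and −0.61 (adjusted p = 0.153, 0.234 and 0.129). That with KO was lost also without KO mouse 13 (adjusted p = 0.0557), that with KA without KA mouse 16 (0.0709), and that with KQ without KQ mouse 17 (0.304), KQ mouse 37 (0.0737) or Myc mouse 32 (0.0797). With the neuron score none of the 3 passed, at −0.64 with KA, −0.62 with KQ and −0.07 with KO (adjusted p = 0.168, 0.247 and 0.929), nor with the interneuron score, at −0.33, −0.13 and 0.17 (adjusted p = 0.727, 0.951 and 0.818). With only the groups compared KA and KQ were lost (adjusted p = 0.063 and 0.114), and KQ also without the mice of high Ttr (0.301) and with the choroid plexus score (0.078).

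In males Htr7 was at 2.61, 5.68, 2.31 and 4.23 CPM with KA, against 5.96 to 7.49 CPM in Myc mice, without overlap, and the log2 fold change of −0.88 ± 0.26 passed (adjusted p = 0.0266). That call was lost without any 1 of 5 of the 8 mice (1, 5, 22, 23 and 26, adjusted p up to 0.138), and with the neuron score (−0.63, adjusted p = 0.0804) and interneuron score (−0.34, 0.542). With KQ, WT and KO it was −0.48, −0.71 and −0.26, and none passed (adjusted p = 0.273, 0.0819 and 0.493). Over KO, neither Htr1b nor Htr7 was higher in any of the 6 replacement groups, with log2 fold changes of −0.63 to 0.27. With the neuron score, which cannot be told apart fully from the group, both were lower than KO in all 3 male replacement groups (Htr1b −0.75 to −0.68, Htr7 −0.92 to −0.70). With the range of sample numbers Htr7 was lower than KO in KA males (−0.71, adjusted p = 0.0314). In these comparisons with Myc, which share the Myc mice of a sex, 2 of 10 receptor genes were lower with WT and 1 each with KA and KQ in females, where 3.52%, 3.23% and 2.08% of all genes were lower. In males 2 were lower with KA, 0 with KQ and 1 with WT, where 2.74%, 1.65% and 1.68% of all genes were lower. For KQ males 1 of the 10 had an unadjusted p under 0.05, and DESeq2 called 1.

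**Figure D4:**
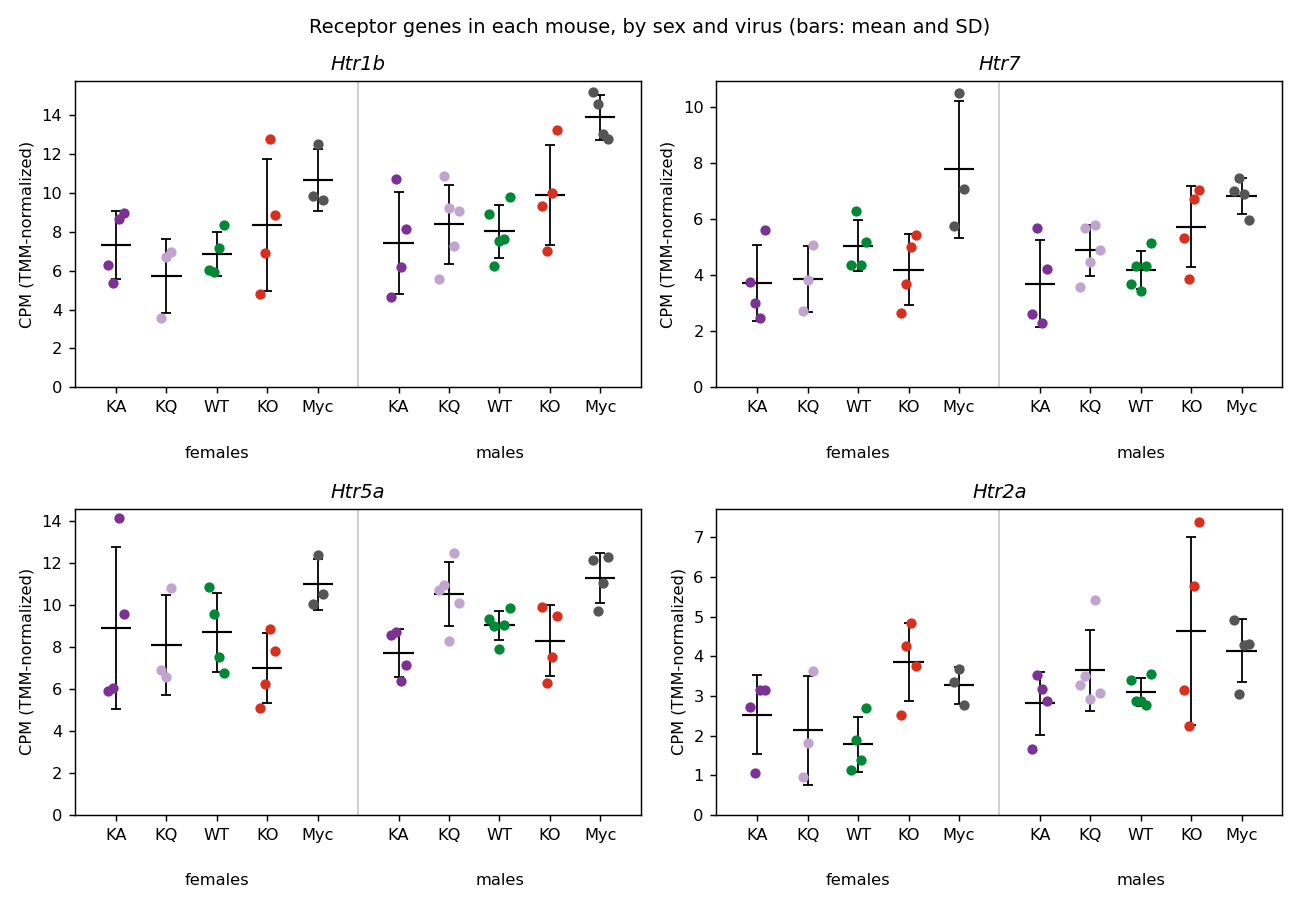
Htr1b, Htr7, Htr5a and Htr2a in CPM in each mouse (points) by sex and virus, with the mean and SD of each group. Replacement males lay below Myc males for Htr1b, and WT females at 1.78 ± 0.689 CPM lay low for Htr2a.

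Htr5a, a receptor coupled to Gi and Go, was at 5.09, 6.25, 8.85 and 7.82 CPM in KO females, against 10.1, 12.4 and 10.6 CPM in Myc females, without overlap. In males it was at 9.92, 6.30, 7.53 and 9.51 CPM in KO mice, against 12.2, 9.74, 11.1 and 12.3 CPM in Myc mice, and KO mouse 3 overlapped Myc mouse 22. The log2 fold change was −0.65 ± 0.22 in females (adjusted p = 0.0201) and −0.45 ± 0.21 in males (adjusted p = 0.0951). The call in females was lost without KO mouse 13 (adjusted p = 0.0862), KO mouse 14 (0.0575) or Myc mouse 31 (0.0905). It was also lost with the choroid plexus score (−0.60, adjusted p = 0.0777), the neuron score (−0.11, 0.854) and the interneuron score (−0.27, 0.669). No replacement group differed from KO or from Myc at the threshold.

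Htr1a, which opens potassium channels through Gi and Go and is abundant in CA1, was at 18.4, 26.0, 35.8 and 39.1 CPM in KO females, against 34.5, 49.4 and 31.2 CPM in Myc females, and the groups overlapped. Its log2 fold change in KO over Myc was −0.36 in females (95% interval −0.79 to 0.06, adjusted p = 0.187) and −0.27 in males (−0.67 to 0.13, adjusted p = 0.326). WT females, at 18.1, 23.8, 25.7 and 28.8 CPM, all lay below the Myc females, with a log2 fold change of −0.67 ± 0.21 (adjusted p = 0.0403). That call was lost without any 1 of 5 of the 7 mice (WT 19, 20 and 39, Myc 11 and 31, adjusted p up to 0.274). It was lost too with the neuron (−0.24, adjusted p = 0.476), interneuron (−0.19, 0.767) and choroid plexus scores (0.151), without the mice of high Ttr (0.0839), with only the groups compared (0.0604) and with all genes of a count above 0 (0.0511).

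Htr2a, a Gq-coupled receptor of cortical neurons, did not follow Htr3a and Htr6. It was at 2.53, 4.26, 4.84 and 3.76 CPM in KO females, against 3.36, 3.68 and 2.77 CPM in Myc females, which overlapped (0.23 ± 0.37, adjusted p = 0.667), and in males the log2 fold change was 0.15 ± 0.34 (adjusted p = 0.78). With the neuron score, which cannot be told apart fully from the group, Htr2a was higher in KO than in Myc females (1.44, adjusted p = 0.0138). In 9 alternatives without the neuron and interneuron scores it ran from −0.05 to 0.27 and passed in none. In WT females it was at 1.14, 1.90, 1.39 and 2.70 CPM, and only mouse 40 reached the range of the KO females. Over KO its log2 fold change was −1.12 ± 0.35 (adjusted p = 0.0251). Of the 10 receptor genes it was the 1 that was lower in WT than in KO females, where 9.17% of all genes were. It was lost without the 4 mice of high Ttr (−0.87, adjusted p = 0.198) and without KO mouse 14 (adjusted p = 0.0668), KO mouse 33 (0.0619), WT mouse 19 (0.0936) or WT mouse 39 (0.0902).

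Htr2c, the Gq-coupled receptor known for its abundance in the choroid plexus, had a coefficient of variation within groups that averaged 48.4%, exceeded among the 10 by Htr1d alone. It was at 15.4, 56.9, 19.5 and 11.1 CPM in WT females and at 12.1, 41.5, 31.5 and 9.29 CPM in KO females, against 13.8, 34.9 and 13.4 CPM in Myc females. The highest level of the 40 mice was that of WT female 20, which also held the most Ttr, at 4104 CPM, and the next that of KO female 14, with 3655 CPM of Ttr. Myc female 31 was as high as 34.9 CPM with 26.1 CPM of Ttr. Over the 40 mice the correlation of Htr2c with the choroid plexus score was 0.60, and within groups 0.72, while for 8 other genes, all but Htr1d, it ran from −0.46 to −0.09 over the mice. Htr2c passed in none of the comparisons, and its 95% interval in KO over Myc ran from −0.92 to 1.32 in females and from −0.97 to 1.09 in males.

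**Figure D5:**
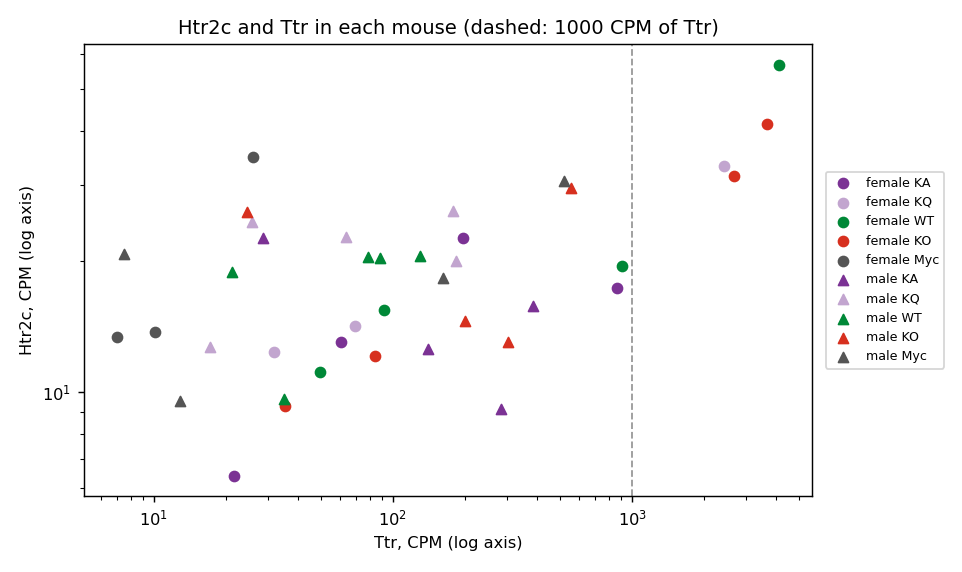
Htr2c against Ttr in CPM in each mouse on log axes, by sex (circles females, triangles males) and virus (colour), with 1000 CPM of Ttr dashed. The 4 mice right of the line had 31.5 to 56.9 CPM of Htr2c, and Myc female 31 had 34.9 CPM at low Ttr.

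Htr4, a Gs-coupled receptor of pyramidal and granule cells, had the lowest coefficient of variation within groups of the 10, on average 14.7%. It was at 22.1, 20.3, 24.9 and 29.1 CPM in KO females, against 29.9, 21.4 and 24 CPM in Myc females, and at 23.6, 21.5, 21.1 and 24.6 CPM in KO males, against 27.2, 24.7, 21.1 and 23.7 CPM in Myc males. These groups overlapped. The log2 fold change was −0.06 (95% interval −0.44 to 0.31) in females and −0.09 (−0.44 to 0.26) in males, and Htr4 passed in none of the comparisons. Its lowest level of the 40 mice, 13.1 CPM, was that of KQ male 45. Its correlation with the neuron score over the mice was 0.23, against 0.34 to 0.80 for the other genes except Htr2c (−0.09) and Htr1d, which was too low to be included.

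Htr1d was near the limit of detection. In males it had 3 to 18 counts per mouse with KA and 1 to 2 counts with KO, and the log2 fold change of 2.17 ± 0.77 passed narrowly (adjusted p = 0.0490). It did not pass when scaled by DESeq2 size factors (adjusted p = 0.0502), or without any 1 of 5 of the 8 mice (3, 4, 21, 26 and 43, adjusted p up to 0.287). With it, 3 of 10 receptor genes were higher than KO in KA males, where 5.86% of all genes were higher. In KQ and WT males 2 each were higher, where 8.72% and 7.44% were. In females 2 were higher with KA, 1 with KQ and 0 with WT, where 5.63%, 5.36% and 5.36% were.

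The last comparison asked whether the acetyl-defective and acetyl-mimic forms differ. In KA over KQ, 0 of 10 receptor genes passed by edgeR or by DESeq2 in either sex, and by edgeR 0% of all genes did. At an unadjusted p under 0.05 there were 0 in females and 1 in males, Htr5a (−0.45 ± 0.20, adjusted p = 0.424). For Htr3a the log2 fold change of KA over KQ was −0.05 in females (95% interval −0.42 to 0.32) and −0.03 in males (−0.36 to 0.30), and for Htr6 it was 0.06 (−0.34 to 0.45) and 0.18 (−0.17 to 0.52). Whether females and males differed in a response was tested by an interaction term. No receptor gene passed in any of 8 such tests, nor in Myc females over Myc males, by edgeR or DESeq2. Of all genes 0% passed for the response to KO and 0.0457% in Myc females over Myc males. At an unadjusted p under 0.05 there was 1, Htr3a in the response to WT (−0.63 log2, adjusted p = 0.735). The calls of Htr5a and Htr7 in KO females alone are therefore not shown to differ from the response of males.

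Of the other receptor genes Htr1f, coupled to Gi and Go, was lower in H2A.Z KO. It was at 0.242, 0.402, 1.39 and 0.845 CPM in KO females, against 1.30, 1.66 and 1.70 CPM in Myc females, with KO mouse 33 in the range of the controls. In males it was at 0.838, 0.6, 0.935 and 1.08 CPM in KO mice, against 2.54, 2.13, 2.23 and 2.69 CPM in Myc mice, without overlap. The log2 fold change was −1.12 ± 0.37 in females (adjusted p = 0.0159) and −1.48 ± 0.34 in males (adjusted p = 0.000718). Over KO it was higher in KA females (1.08 ± 0.34, adjusted p = 0.0286) and KQ males (1.06 ± 0.33, adjusted p = 0.0158). Htr5b and Htr2b, at medians of 3.67 and 0.492 CPM, passed in none of the comparisons, and Htr3b, which makes the partner subunit of Htr3a, had 0 counts in 20 of 40 mice and at most 5.

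The partners of the receptors in the cell were described from lists of the pathway. For comparison with the counts of each list, 16.5% of all genes were lower in KO over Myc in females and 14.4% in males. Those higher were 18.1% and 17.2%. Of 16 genes of Gs signalling, 9 were lower and 0 higher in KO over Myc in females, and 10 lower and 1 higher in males, with a median log2 fold change of −0.44 and −0.40. Adcy5, an adenylyl cyclase, averaged 49.7 CPM in KO females, against 83.7 CPM in Myc females, and 44.5 CPM in KO males, against 78.7 CPM in Myc males (−0.75 and −0.82, adjusted p = 1.11e-06 and 3.47e-08). Pde4d, which breaks down cyclic AMP (−0.83 and −0.62, adjusted p = 5.46e-07 and 1.46e-05), Adcy3 (−0.65 and −0.41, adjusted p = 4.55e-05 and 0.00425) and the G protein gene Gnal (−0.49 and −0.68, adjusted p = 0.00441 and 4.53e-05) were lower too. Pde4b, which also breaks down cyclic AMP, was the 1 higher in males (0.32, adjusted p = 0.0493). In females it was at 0.09 (adjusted p = 0.655), and it was named after its values were seen.

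Of 12 genes of Gi and Go signalling, 7 were lower and 2 higher in females and 6 lower and 2 higher in males. Rgs14, which limits Gi signalling and marks CA2, averaged 46.3 CPM in KO females, against 99.3 CPM in Myc females, and 44.0 CPM in KO males, against 109 CPM in Myc males (−1.10 and −1.31, adjusted p = 6.71e-05 and 1.84e-06), and Gnaz was lower as well (−0.61 and −0.55, adjusted p = 6.41e-06 and 8.42e-06). Gnai2 (0.81 and 0.85, adjusted p = 3.47e-06 and 2.09e-07) and Gnai3 (0.63 and 0.42, adjusted p = 0.000212 and 0.00578), inhibitory G protein genes that are widely expressed outside neurons, were higher. Of 13 genes of Gq signalling 6 were lower and 4 higher in both sexes, and the 4 with the smallest p-values were those higher. Plcb2, a phospholipase C of blood cells, averaged 17.5 CPM in KO females, against 3.94 CPM in Myc females, and 19.7 CPM in KO males, against 2.85 CPM in Myc males (2.15 and 2.79, adjusted p = 2.17e-08 and 1.15e-11), and Itpr2 (0.95 and 1.08), Plcb3 (0.76 and 0.75) and Itpr3 (0.84 and 0.74) were higher with adjusted p of 7.03e-09 to 0.000342. Markers of microglia and T cells were higher in the same mice, and their part in these values was not tested.

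Of 12 receptor partners and trafficking genes, 7 were lower and 1 higher in females and 6 lower and 2 higher in males. The receptor kinase genes Grk3 (−0.64 and −0.43, adjusted p = 8.52e-06 and 0.000632) and Grk6 (−0.56 and −0.46, adjusted p = 3.87e-05 and 0.000206) and Grk2 (−0.43 and −0.30, adjusted p = 0.00128 and 0.0144) were lower, and S100a10, an adaptor that binds the product of Htr1b, was higher (1.22 and 1.77, adjusted p = 0.00666 and 6.06e-05). Of 11 genes of serotonin synthesis, storage, uptake and breakdown, 0 were lower and 3 higher in females, and 1 lower and 3 higher in males. Among all genes 18.1% were higher in females and 17.2% in males, and 16.5% and 14.4% lower. Those higher in both sexes were Gch1, which makes the cofactor of tryptophan hydroxylase (1.17 and 0.92, adjusted p = 0.000161 and 0.000801), Maob, a monoamine oxidase of astrocytes (0.60 and 0.55, adjusted p = 0.000211 and 0.000202), and Tph2, the neuronal tryptophan hydroxylase (1.15 and 1.13, adjusted p = 0.0184 and 0.0114). Slc18a2, the vesicular monoamine transporter, was lower in males (−0.53, adjusted p = 0.0214) and at −0.27 in females (adjusted p = 0.301). The serotonin transporter gene Slc6a4 averaged 0.0651 CPM in KO females, against 0.0303 CPM in Myc females, and 0.0488 CPM in KO males, against 0.0342 CPM in Myc males, near the limit of detection, and was named after its values were seen.

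Genes with a course like that of each receptor gene were sought by the correlation of log2 CPM over the 40 mice among 15936 genes, which share libraries and scaling. Those most like Htr3a were Gdap1l1 (r = 0.87), Idh3a (0.86) and Atp6v1e1 (0.86), and among those most like Htr6 were Nsg1 and Rundc3a (0.89 each). Within groups these fell to 0.70 to 0.72 for Htr3a and to 0.78 to 0.79 for Htr6. Htr1b was most like Chrna5 (0.86), a nicotinic receptor subunit, Htr7 most like Zfp618 (0.82), Htr5a most like Nkrf (0.80), Htr1a most like Mark4 (0.84), Htr2a most like Zfp711 (0.83), Htr4 most like Slc4a7 (0.80) and Htr2c most like Stk39 (0.78). Among the receptor genes themselves, Htr1b and Htr7 were the most alike (0.76, within groups 0.70), followed by Htr3a and Htr6 (0.75, within groups 0.47), while Htr1b and Htr3a were at 0.28 and Htr6 and Htr7 at 0.13.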

How the data were processed

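RNA-seq of hippocampal tissue of 40 mice was used, with 1 library per mouse and groups taken from the labels. Read pairs were checked by the authors with FastQC 0.11.9, mapped to GRCm39 with Rsubread and counted per gene with featureCounts, and the raw counts they deposited are the values used here. A further table deposited by the authors, of counts divided by DESeq2 1.38.3 size factors, was not used.

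Of 40853 genes, the 28449 whose counts summed to 20 or more were tested. edgeR 4.0.16 under R 4.3.3 was used with TMM factors, robust dispersions and quasi-likelihood F tests (glmQLFTest), in 1 model holding the means of the 10 groups. Benjamini-Hochberg adjustment ran across every gene tested, and calls needed an adjusted p under 0.05 with no limit on fold change. Log2 CPM used a prior count of 2. Marker scores and correlations were computed on log2 CPM, and DESeq2 1.42.0 served as an alternative test. Exon lengths, coordinates, gene overlaps and promoters came from GENCODE vM39 and its GRCm39 genome, matched by symbol for all 14 receptor genes. The script was tested on simulated data. Libraries held 24342921 to 45982772 counts, and mice of 1 group differed by more than counting error, with chi-square values per degree of freedom from 8.16 upwards.

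All 10 receptor genes and the other 4 are described, with up to 4 genes per pathway list by smallest p in H2A.Z KO over Myc and the 3 genes most correlated with each receptor gene (mean of at least 1 CPM), of which 1 to 3 are named, and 1 gene is not reported here. The receptor genes, lists and alternatives were chosen with earlier results of these data known. Alternatives were other scaling, filters and tools, fewer samples, covariates for the choroid plexus and the range of sample numbers, leaving out each mouse and, added after seeing the data, covariates for neuron and interneuron scores.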

Additional observations from a re-analysis of the deposited data

Results flagged for a closer look

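In groups of 4 or 5 mice, each receptor gene was examined for a mouse whose gap to the nearest other exceeded the 95% limit of Dixon's test. Of 80 pairs of gene and group 3 had such a mouse, where chance gives about 1 in 20. Htr2a was at 5.43 CPM in KQ male 44, and the other 4 KQ males were at 2.93 to 3.51 CPM. Htr2c was at 9.65 CPM in WT male 30, and the other 4 WT males were at 18.9 to 20.5 CPM. Htr3a was at 7.25 CPM in KA male 43, and the other 3 KA males were at 6.24 to 6.36 CPM, and without that mouse Htr3a in KA males over KO was 0.45 with an adjusted p of 0.12.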

How the results depend on the processing

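Counts of called receptor genes changed when single mice were left out and when a neuron or interneuron score was a covariate. The share of all genes called was not computed in any of these fits. Their counts therefore cannot be set against the shares of all genes given above. No paired analysis was possible because the groups share no replicate numbers in the labels. Leaving out 1 mouse at a time, edgeR called 2 to 4 (4 with all mice) in KO over Myc in females and 1 to 2 (2) in males. Over Myc it called 0 to 1 (1) with KA, 0 to 1 (1) with KQ and 0 to 2 (2) with WT in females, and 0 to 2 (2), 0 to 1 (0) and 0 to 1 (1) in males. Over KO it called 0 to 2 (2) with KA, 0 to 2 (1) with KQ and 0 to 2 (1) with WT in females, and 1 to 3 (3), 1 to 3 (2) and 0 to 2 (2) in males.

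With the neuron score as a covariate, added after the data were seen, no receptor gene was lower in KO over Myc: the count was 1 in females, Htr2a, now higher, and 0 in males. The counts were over Myc 0 with KA, 0 with KQ and 0 with WT in females and 1, 1 and 0 in males, and over KO 1, 2 and 3 in females, while males had 5, 5 and 4. All those in females were lower than KO (Htr2a with each form, Htr1b with KQ and WT, Htr1a with WT). In males Htr6 and Htr1d with KA and Htr1d with KQ were higher, and the others, among Htr1a, Htr1b, Htr2a and Htr7, lower. With the interneuron score, added likewise, they were 0 and 0 in KO over Myc, over Myc 0, 0 and 0 in females and 0 with KA and 0 with WT in males, and over KO 1, 3 and 2 in females and 5 with KA in males, of which those higher were Htr3a in KQ females and Htr1d and Htr6 in KA males. In these fits Htr7 in KO over Myc in females turned to 0.17 (interneuron score, adjusted p = 0.818) and Htr1a in KQ over KO in males to −0.42 (neuron score, adjusted p = 0.0358). These scores differ between the groups, so the covariate and the group cannot be told apart fully.

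With the choroid plexus score the counts were 0 for WT over Myc, 0 for KQ over Myc and 1 for KA over KO in females. Without the mice of high Ttr they were 1 for WT over Myc, 0 for KQ over Myc and 0 for WT over KO in females. With all genes of a count above 0, WT over Myc in females gave 1, and with filterByExpr KQ over Myc in females gave 2. With the range of sample numbers KQ gave 2 over Myc and 3 over KO in females (Htr1b and Htr2a lower, Htr3a higher) and 1 over Myc in males, and in KA males over KO it exchanged Htr3a for Htr7, which was lower. DESeq2 gave 2 for KQ over Myc and 2 for KQ over KO in females, and 2 for WT over Myc and 1 for KQ over Myc in males. With only the groups compared, females gave 0 for KA and 0 for KQ over Myc and 0 and 0 over KO, and males 4 for WT over Myc, 1 for KQ over Myc, 1 for WT over KO and 1 for KQ over KO. The cause was not tested. No other scaling moved the median of all genes by over 0.1. Low counts limit Htr1d, Htr3b and Htr2b.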
